A study of Mus musculus with 15 samples.

Results

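Itaconate, arginine, polyamine, cystine and tryptophan metabolism in mouse carotid arteries was described here through 9 genes: Acod1 (earlier symbol Irg1), Arg1, Arg2, Nos2, Odc1, Ido1, Kynu, Slc7a2 and Slc7a11. They are a list of named genes, chosen with earlier results of these data known. The rule that finds them uses no measured value. All 9 were found by gene symbol among 22180 measured genes, on 10 probe sets. No filter on low values was applied. The study took carotid arteries of female C57Bl/6J mice aged 21 to 22 weeks, 5 days after the left common carotid artery was ligated, an operation that stops flow and leads to neointimal thickening. Its 4 groups were ligated arteries of Has3-deficient mice (n = 3), non-ligated arteries of Has3-deficient mice (n = 4), ligated arteries of wildtype mice (n = 4) and non-ligated arteries of wildtype mice (n = 4). Has3 is a hyaluronan synthase; the labels do not give the allele, or whether any arteries came from the same animal, so the spread behind each p-value is that between samples and may be partly technical. Values are log2 units relative to the median of each probe set over the 15 arrays: 0 is the middle array for that probe set, differences between arrays are kept, and levels of different genes cannot be compared.

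These enzymes are known for how myeloid cells redirect metabolism on activation. Acod1 makes itaconate from cis-aconitate of the citric acid cycle; arginine is split to ornithine and urea by the arginases (Arg1 in the cytosol, Arg2 in mitochondria) or oxidised to nitric oxide and citrulline by inducible nitric oxide synthase (Nos2). Ornithine feeds Odc1, the first step of polyamine synthesis. Ido1 opens the kynurenine pathway of tryptophan and Kynu acts further along it, while Slc7a2 imports arginine and Slc7a11 is the cystine importer that supplies glutathione synthesis.

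Ligation was accompanied by higher values of Acod1, Arg1, Arg2, Nos2 and Slc7a11 in both genotypes, and Acod1 and Arg1 were among the 20 largest rises of all genes. In Has3-deficient arteries 5 of 9 members rose and 0 fell, where 10.2% of all genes rose and 8.08% fell. Wildtype arteries had 7 of 9 risen and 0 fallen, where 13.2% of all genes rose and 14.6% fell; the further pair was Odc1 and Kynu, with far smaller changes. Every ligated array lay above every non-ligated one for 6 of 9 members in Has3-deficient arteries (13% of all genes) and for 6 of 9 in wildtype arteries (14% of all genes), Kynu being among those that overlap in wildtype arteries. The median change over the 9 members was 1.58 in Has3-deficient and 1.73 in wildtype arteries, beside medians over all genes of -0.03 and 0.01. All tests are limma fits over all genes, with a call at a Benjamini-Hochberg adjusted p under 0.05. The shares of all genes that rose or fell, given above, are the background for the list counts below that use all arrays.

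Some arrays stood apart in markers of other tissues, by a mean above 1 over a marker list. Neuron and chromaffin markers did so in Has3-deficient non-ligated arrays 1 (1.69), 3 (4.91) and 4 (2.25) and wildtype non-ligated array 2 (2.99). Fat markers did so in Has3-deficient non-ligated array 4 (2.04) and wildtype non-ligated array 1 (1.84). Without these 5 arrays the non-ligated groups keep 1 Has3-deficient and 2 wildtype arrays, the lone one being assumed to vary like the others. For the members, values without them are given where they change a call, or move a fold by more than 1.5 times. For the lists only counts are given without them, so which listed genes keep their call is not shown. Fewer arrays can change a count by themselves. The share of all genes passing in that smaller fit is not given, so its list counts have no background to be read against. The Has3 probe set averaged -0.05 ± 0.17 in Has3-deficient and 0.16 ± 0.29 in wildtype ligated arteries, and 0.12 ± 0.24 against 0.03 ± 0.13 in non-ligated ones (mean ± SD). Neither difference passed (adjusted p = 0.99994 and 0.853 with limma), so it does not check the genotype labels.

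**Figure D1:**
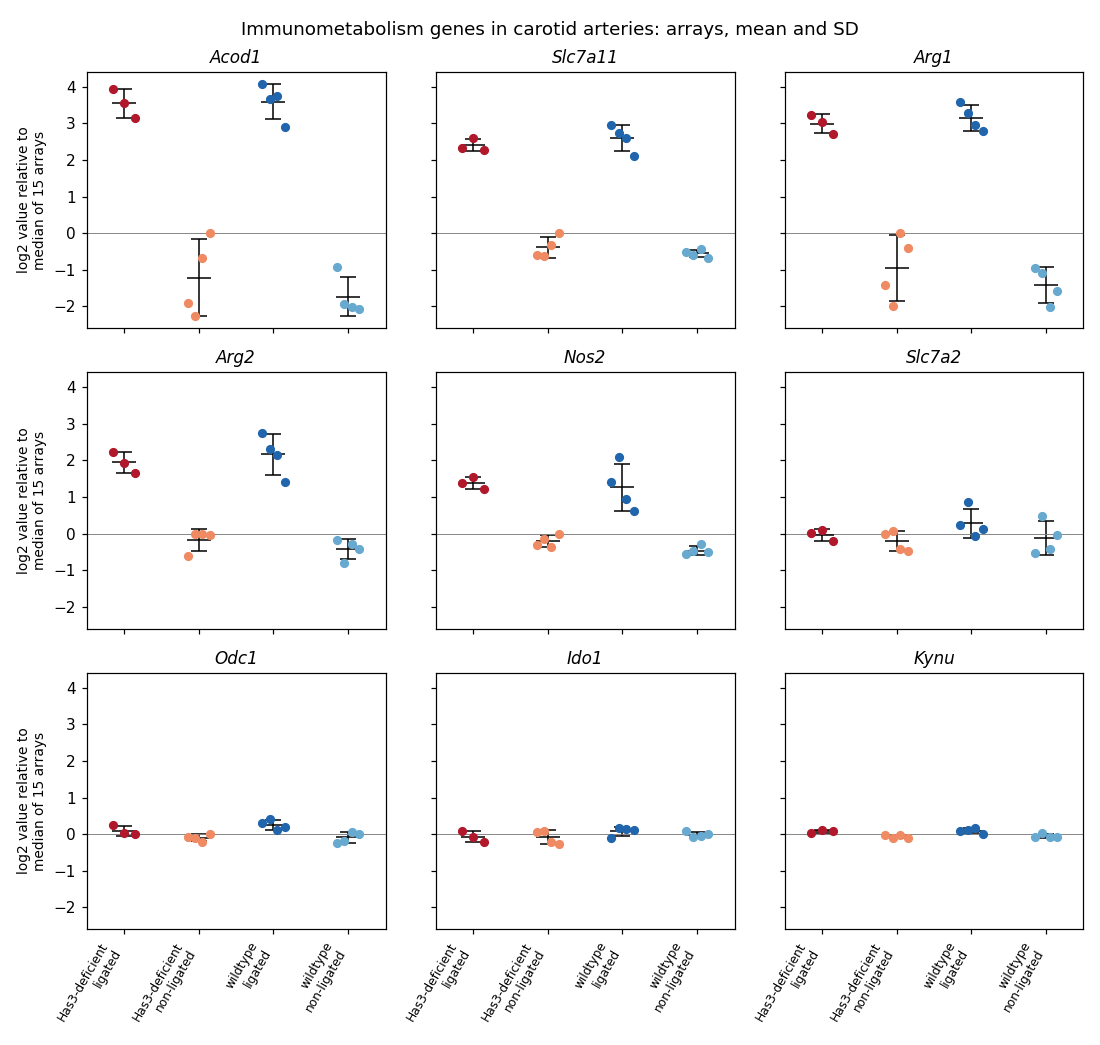
Log2 values of the 9 genes (vertical axis, relative to the median of 15 arrays) in each array (points) of the 4 groups (horizontal axis), with the mean and SD (bars). All ligated arrays lie above all non-ligated arrays for Acod1, Slc7a11, Arg1, Arg2 and Nos2, while Slc7a2 and Ido1 overlap.

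Acod1, at chr14:103047012-103056573 (GRCm38.p6), rose most of the members. In Has3-deficient arteries its values were 3.95, 3.55 and 3.14 after ligation, against -1.91, -2.25, -0.69 and 0 without ligation. In wildtype arteries they were 4.08, 3.66, 3.74 and 2.91 after ligation, against -0.92, -1.93, -2.02 and -2.07 without. The groups did not overlap in either genotype; non-ligated arrays 3 and 4 of Has3-deficient mice and 1 of wildtype mice were the highest of the non-ligated arteries. The change was 4.76 ± 0.48 log2 units in Has3-deficient (± standard error, 27.1-fold, adjusted p = 6.11e-06 with limma) and 5.33 ± 0.44 in wildtype arteries (40.3-fold, adjusted p = 6.95e-07 with limma). It ranked 7 in Has3-deficient and 6 in wildtype arteries among 22180 changes. Without the 5 arrays that stand apart the changes were 5.80 (55.7-fold) in Has3-deficient and 5.64 (49.996-fold) in wildtype arteries. The Has3-deficient change then rests on non-ligated array 2 alone, the lowest of all non-ligated arrays (-2.25).

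The promoter of Acod1 is shown because it rose most among the members whose upstream sequence is in the RefSeq promoter table (GRCm38.p6, 3 of 9 members: Acod1, Odc1 and Slc7a11). The 250 bases before its start are chr14:103046762-103047011, plus strand, with a TATA box (TATAAA) in capitals.
Acod1: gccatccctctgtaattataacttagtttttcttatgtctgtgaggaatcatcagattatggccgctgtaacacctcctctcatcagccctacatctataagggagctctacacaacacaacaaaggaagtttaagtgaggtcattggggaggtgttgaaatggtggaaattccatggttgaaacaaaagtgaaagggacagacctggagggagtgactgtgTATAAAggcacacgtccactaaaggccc
The TATA box begins at -28 from the start; 12.4% of 32851 promoters hold TATAAA on either strand. The NF-kB pattern (GGG, 5 free bases and CC) matched 1 time, at -55, as it does in 45.8% of promoters. Patterns for AP-1 (TGANTCA), C/EBP (TTNNGNAA), the interferon-stimulated response element (GAAA, 2 free bases and GAAA), the antioxidant response element (TGANNNNGC), the ATF4 composite element (TGATGNAA) and the E-box (CACGTG) were not in this window. All patterns were searched on both strands.

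Most genes around itaconate showed no rise beside that of Acod1. Of 19 measured genes of citrate and succinate metabolism 0 rose and 0 fell in Has3-deficient arteries (median -0.22, against -0.03 over all genes). In wildtype arteries 1 rose and 6 fell (median -0.57, against 0.01 over all genes). Clybl, which acts in the breakdown of itaconate, changed by -1.08 ± 0.29 in wildtype (adjusted p = 0.0112 with limma) and by -0.54 ± 0.31 in Has3-deficient arteries, where it did not pass. Slc25a1, the citrate carrier of mitochondria (-0.98), Ogdh, of the 2-oxoglutarate dehydrogenase complex (-0.57), and Suclg2, a subunit of succinyl-CoA synthetase (-0.70), fell in wildtype arteries. Their values in Has3-deficient arteries were -0.57, -0.35 and -0.20, none of which passed. The risen gene was Irf1 (0.34), a transcription factor of the interferon response that acts on Acod1, named after its value was seen. The list's mean was highest in wildtype non-ligated array 1 (1.02) and Has3-deficient non-ligated array 4 (0.87), which also held the highest fat marker means; the part of fat in this result was not tested. Without the 5 arrays that stand apart, 2 rose and 0 fell in Has3-deficient and 1 rose and 6 fell in wildtype arteries.

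Both arginases rose, Arg1 by more log2 units than Arg2. Arg1 (chr10:24915207-24927470) had 3.23, 3.05 and 2.71 in ligated Has3-deficient arteries, against -1.43, -1.98, 0 and -0.40 in non-ligated ones. In wildtype mice it had 3.60, 3.27, 2.95 and 2.79 in ligated arteries, against -0.94, -1.09, -2.03 and -1.59 in non-ligated ones. Every ligated array was above every non-ligated one, and Has3-deficient non-ligated arrays 3 and 4 were again the highest without ligation. Arg1 changed by 3.95 ± 0.40 in Has3-deficient (15.4-fold, adjusted p = 7.59e-06 with limma) and by 4.57 ± 0.37 in wildtype arteries (23.7-fold, adjusted p = 6.37e-07 with limma). The changes ranked 20 and 13 among all genes. Without the 5 arrays that stand apart they were 4.98 (31.5-fold) in Has3-deficient and 4.96 (31.2-fold) in wildtype arteries. The Has3-deficient change then rests on non-ligated array 2 alone, the lowest of its group (-1.98).

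Arg2, the mitochondrial arginase (chr12:79130788-79156301), had 2.24, 1.94 and 1.67 in ligated Has3-deficient arteries, against -0.61, 0, -0.02 and -0.04 in non-ligated ones. The ligated wildtype values were 2.76, 2.31, 2.16 and 1.42, against -0.17, -0.81, -0.28 and -0.41 without ligation. No overlap was seen, and wildtype array 4 was the lowest ligated array. Arg2 changed by 2.11 ± 0.26 in Has3-deficient (4.33-fold, adjusted p = 5.14e-05 with limma) and by 2.58 ± 0.24 in wildtype arteries (5.99-fold, adjusted p = 2.55e-06 with limma).

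Nos2, the enzyme that competes with the arginases for arginine (chr11:78920787-78960226), rose as well, by fewer log2 units. Its values were 1.38, 1.55 and 1.21 in ligated Has3-deficient arteries, against -0.31, -0.14, -0.35 and 0 in non-ligated ones. Wildtype arteries had 1.41, 2.10, 0.94 and 0.62 after ligation, against -0.57, -0.49, -0.29 and -0.51 without. Ligated arrays were all higher, and the wildtype ligated arrays were the most spread of the 4 groups (SD 0.64). The change was 1.58 ± 0.25 in Has3-deficient (2.99-fold, adjusted p = 0.000420 with limma) and 1.73 ± 0.23 in wildtype arteries (3.32-fold, adjusted p = 5.53e-05 with limma).

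Arginine supply showed no such rise. Slc7a2, the cationic amino acid transporter (chr8:40862341-40922070), ran from -0.21 to 0.09 in ligated against -0.46 to 0.08 in non-ligated Has3-deficient arteries, and from -0.07 to 0.85 in ligated against -0.52 to 0.49 in non-ligated wildtype arteries. The ranges overlap in both genotypes. Changes were 0.17 (95% interval -0.36 to 0.69) in Has3-deficient and 0.41 (-0.08 to 0.90) in wildtype arteries, and neither passed (adjusted p = 0.729 and 0.225 with limma). Array 2 was the highest of the wildtype ligated group, as was array 2 of the wildtype non-ligated group; leaving out the non-ligated one, the wildtype change was 0.61 and passed (adjusted p = 0.0471 with limma).

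Of 12 other genes of arginine transport, citrulline recycling and nitric oxide, 1 rose and 1 fell in each genotype. Of all genes 10.2% rose and 8.08% fell in Has3-deficient arteries, and 13.2% rose and 14.6% fell in wildtype arteries, so this list did not stand out. Slc3a2, the heavy chain that carries Slc7a11 and other transporters to the cell surface, rose by 0.82 ± 0.12 in Has3-deficient and by 0.95 ± 0.11 in wildtype arteries. Nos3, the nitric oxide synthase of endothelium, changed by -0.99 ± 0.22 and -0.90 ± 0.21. Counts without the 5 arrays that stand apart were 2 risen and 3 fallen in each genotype. Genes for tetrahydrobiopterin, the cofactor of Nos2, showed 0 risen and 1 fallen of 5 in Has3-deficient and 0 risen and 2 fallen of 5 in wildtype arteries. Spr, which makes the cofactor, fell in both (-0.32 and -0.28), and Qdpr, which regenerates it, in wildtype (-0.31), with -0.24 in Has3-deficient arteries. These counts rest on the arrays used: without the 5 that stand apart, 2 rose and 1 fell in Has3-deficient and 2 rose and 0 fell in wildtype arteries.

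Downstream of the arginases, Odc1 (chr12:17544808-17551502) moved little. It had 0.24, 0.03 and 0 in ligated against -0.07, -0.10, -0.22 and 0 in non-ligated Has3-deficient arteries, which touch. Wildtype values were 0.30, 0.42, 0.12 and 0.18 after ligation, against -0.23, -0.18, 0.06 and -0.0032 without, with no overlap. Odc1 rose by 0.35 ± 0.09 in wildtype arteries (1.27-fold, adjusted p = 0.00755 with limma), while the change of 0.19 ± 0.09 in Has3-deficient arteries did not pass (adjusted p = 0.200 with limma). The wildtype change without the 5 arrays that stand apart was 0.23 and did not pass (adjusted p = 0.137 with limma).

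Among 11 other polyamine genes, 1 rose and 1 fell in Has3-deficient arteries, near the shares of all genes (10.2% and 8.08%). In wildtype arteries 3 rose and 1 fell, where 13.2% of all genes rose and 14.6% fell. Smox, which oxidises spermine back to spermidine, rose by 1.99 ± 0.24 in Has3-deficient (adjusted p = 4.20e-05 with limma) and by 2.31 ± 0.22 in wildtype arteries (adjusted p = 3.38e-06 with limma). Sat1, which acetylates polyamines for breakdown and export, rose in wildtype (0.52), and stood at 0.50 in Has3-deficient arteries without passing. Srm, the spermidine synthase, likewise rose in wildtype (0.40, with 0.29 in Has3-deficient arteries), and Oaz2, an antizyme that restrains Odc1, fell in both (-0.37 and -0.35). Without the 5 arrays that stand apart, 2 rose and 1 fell in each genotype.

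In the branch from ornithine to proline and glutamate, 1 of 5 genes rose and 2 fell in Has3-deficient arteries, and 1 rose and 3 fell in wildtype arteries. Aldh18a1, which opens proline synthesis from glutamate, rose by 0.63 ± 0.12 and 0.65 ± 0.11. Oat, the aminotransferase that takes ornithine out of the polyamine route, fell (-0.42 and -0.67), as did Prodh, which oxidises proline (-0.46 and -0.29). Aldh4a1, the next step of proline breakdown, was at -0.38 without passing and fell by 0.44 in wildtype arteries. In wildtype arteries 1 gene, not 3, fell without the 5 arrays that stand apart.

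**Figure D2:**
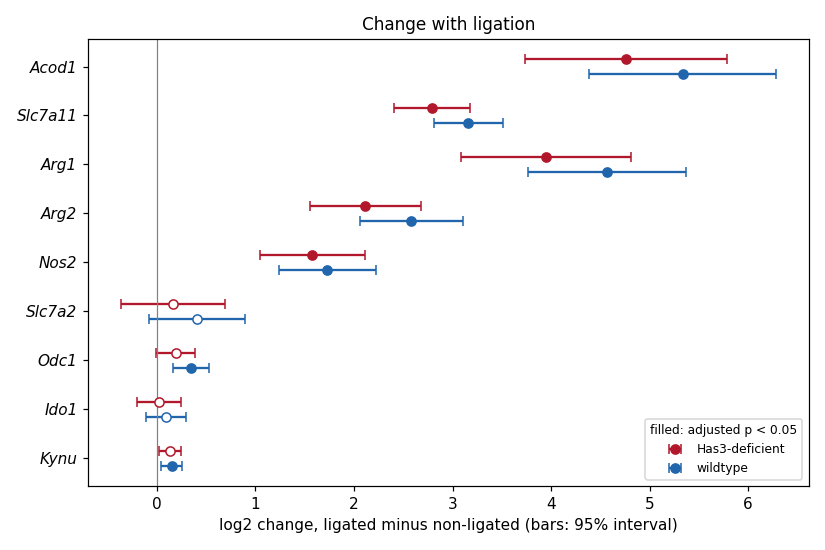
Change of each gene with ligation (horizontal axis, log2 units, ligated minus non-ligated) with its 95% interval (bars) in Has3-deficient and wildtype arteries; filled points passed. Acod1 and Arg1 lie farthest to the right in both genotypes, and Ido1 and Kynu lie near 0. Slc7a11 is drawn as the mean of its 2 probe sets, of which probe set 2 alone changed by 4.45 and 5.05, more than Arg1.

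Slc7a11, the cystine importer (chr3:50364936-50499087), rose on both of its probe sets, but by different amounts. On the mean of the probe sets it had 2.34, 2.59 and 2.28 in ligated Has3-deficient arteries, against -0.59, -0.62, -0.33 and -0.01 in non-ligated ones. Wildtype values were 2.94, 2.75, 2.61 and 2.12 after ligation, against -0.52, -0.61, -0.43 and -0.67 without. The ligated arrays lay above all others, and the change was 2.79 ± 0.18 in Has3-deficient (6.92-fold, adjusted p = 8.90e-08 with limma) and 3.16 ± 0.16 in wildtype arteries (8.94-fold, adjusted p = 1.12e-08 with limma).

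The mean hides a difference between the probe sets. Probe set 1 had 0.69, 1.49 and 1.20 in ligated Has3-deficient and 1.66, 1.40, 1.16 and 0.63 in ligated wildtype arteries, and all 8 non-ligated arrays lay between -0.11 and 0. Probe set 2 had 3.99, 3.69 and 3.36 in ligated Has3-deficient and 4.23, 4.09, 4.05 and 3.61 in ligated wildtype arteries, with non-ligated arrays from -1.24 to 0. Its change was 4.45 ± 0.26 in Has3-deficient and 5.05 ± 0.24 in wildtype arteries, against 1.13 ± 0.20 and 1.28 ± 0.19 for probe set 1, and all 4 changes passed in a limma fit over 23521 probe sets. The sources used here do not say which part of the gene each probe set covers, so the size of the Slc7a11 change is uncertain while its direction is shared. The non-ligated SD was 0.0048 in Has3-deficient and 0.05 in wildtype arteries for probe set 1, against 0.58 and 0.18 for probe set 2. With levels lost in the centring, whether probe set 1 was above background without ligation cannot be seen.

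**Figure D3:**
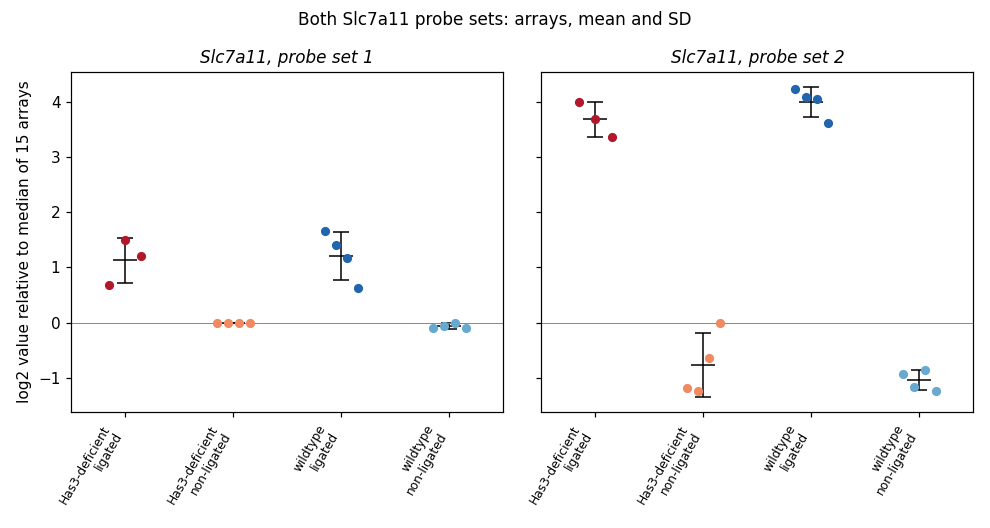
Log2 values (vertical axis, relative to the median of 15 arrays) of both Slc7a11 probe sets in each array (points) of the 4 groups, with mean and SD (bars). Ligated arrays reach 1.66 at most on probe set 1 and lie between 3.36 and 4.23 on probe set 2.

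The promoter of Slc7a11 is shown because amino acid shortage is known to act on this gene through ATF4, a stress factor, at a pair of elements of opposite orientation. The 250 bases before the RefSeq start are chr3:50443614-50443863, minus strand. They lie within the span given above for the gene, so this start is not at the outer end of that span. The ATF4 composite element (TGATGNAA, either strand) is in capitals.
Slc7a11: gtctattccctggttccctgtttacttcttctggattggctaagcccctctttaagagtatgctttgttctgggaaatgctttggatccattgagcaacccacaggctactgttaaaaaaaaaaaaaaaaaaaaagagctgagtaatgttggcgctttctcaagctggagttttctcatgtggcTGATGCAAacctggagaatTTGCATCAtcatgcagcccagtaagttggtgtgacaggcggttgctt
The element was found 2 times, with first bases at -66 and -47, and 3.5% of the 32851 promoters hold it at least once. C/EBP, antioxidant response element and NF-kB patterns matched 2, 2 and 1 times, and occur in 36.8%, 35.2% and 45.8% of promoters; one antioxidant match (first base -45) overlaps the second ATF4 match. AP-1 (6.7% of promoters), interferon-stimulated (3.0%), E-box (6.0%) and TATA box patterns were not in this window. Of all 8 patterns, the Odc1 window held NF-kB alone.

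Several genes of glutathione and of the Nrf2 response rose beside Slc7a11. Of 16 measured genes of cystine, glutathione and Nrf2 targets, 6 rose and 1 fell in Has3-deficient arteries (median 0.28), and 9 rose and 1 fell in wildtype arteries (median 0.28). Hmox1, the haem oxygenase, rose by 3.30 ± 0.20 and 3.55 ± 0.18, and Gsr, which regenerates glutathione, by 1.48 ± 0.16 and 1.69 ± 0.14. Txnrd1, the thioredoxin reductase (1.004 and 1.25), and Srxn1, which repairs peroxiredoxins (0.56 and 0.97), followed. Genes of glutathione synthesis itself, named after their values were seen, were mixed. Gclm rose (0.48 and 0.44), while Gclc (-0.02 and -0.10) and Gss (-0.04 and 0.12) did not pass. The fallen gene was Nqo1, a quinone reductase (-0.52 and -0.67), named after its value was seen. On leaving out the 5 arrays that stand apart, 4 rose and 0 fell in Has3-deficient and 8 rose and 1 fell in wildtype arteries.

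Tryptophan catabolism was the branch with the least change among the members. Ido1, which opens the pathway (chr8:24584133-24596952), ran from -0.22 to 0.10 in ligated against -0.28 to 0.10 in non-ligated Has3-deficient arteries. In wildtype arteries it ran from -0.10 to 0.17 after ligation, against -0.08 to 0.09 without. The groups overlap, and the changes were 0.02 (95% interval -0.20 to 0.24) in Has3-deficient and 0.09 (-0.11 to 0.30) in wildtype arteries, so rises above 0.30 log2 units lie outside both intervals. Neither passed (adjusted p = 0.936 and 0.562 with limma). As levels were lost in the centring, whether the Ido1 probe set was above background cannot be seen.

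Kynu, kynureninase (chr2:43555258-43683048), ran from 0.03 to 0.10 in ligated against -0.11 to -0.01 in non-ligated Has3-deficient arteries, and from 0 to 0.16 in ligated against -0.09 to 0.02 in non-ligated wildtype arteries. The groups do not overlap in Has3-deficient arteries and do in wildtype ones. The change of 0.15 ± 0.05 in wildtype arteries passed (1.11-fold, adjusted p = 0.0351 with limma), and that of 0.13 ± 0.05 in Has3-deficient arteries did not (adjusted p = 0.103 with limma). The wildtype call was lost on leaving out any one of non-ligated arrays 1, 3 and 4 (0.14 each) and of ligated arrays 1 (0.15), 2 (0.14) and 3 (0.13), and without the 5 arrays that stand apart (0.17).

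Of 16 measured genes of the tryptophan and kynurenine list, 3 rose and 1 fell in Has3-deficient arteries, and 4 rose and 2 fell in wildtype arteries. Ahr, a receptor that binds kynurenine, rose by 0.99 ± 0.23 and 1.51 ± 0.21, and Kmo, which hydroxylates kynurenine, by 0.81 ± 0.14 and 0.83 ± 0.13. The kynurenine aminotransferase Kyat1 fell (-0.36 and -0.60), and Kyat3 fell in wildtype arteries (-0.72), with -0.38 in Has3-deficient ones. Named after their values were seen, Tiparp and Qprt rose as well. Tiparp, a target of Ahr, rose in both genotypes (0.48 and 0.42). Ahrr (-0.03 and 0.05) and Cyp1b1 (0.53 and 0.06), listed beside it, passed in neither genotype. Qprt, which leads to NAD, rose in wildtype arteries (0.30). The other initiating dioxygenases did not pass: Ido2 was at 0.11 and 0.19, and Tdo2 at -0.02 and 0.07. Without the 5 arrays that stand apart, 3 rose and 0 fell in Has3-deficient and 3 rose and 2 fell in wildtype arteries.

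Arg1 and Nos2 are used as signs of alternative and classical macrophage activation, and genes of both programmes rose. Of 11 classical genes 8 rose in Has3-deficient and 9 in wildtype arteries, with 0 fallen. Il1b (5.41 ± 0.70 and 5.63 ± 0.65) and Tnf (3.51 ± 0.23 and 3.89 ± 0.21), both inflammatory cytokines, led them. Il6 (2.29 and 2.85) and Ptgs2, the inducible cyclooxygenase (2.30 and 2.23), followed. Of 12 alternative genes 6 rose and 0 fell in Has3-deficient arteries, and 7 rose and 2 fell in wildtype arteries. Chil3, a chitinase-like protein (2.36 and 3.00), and the chemokine Ccl22 (2.41 and 2.01) rose most on the mean over both genotypes, followed by the interleukin 4 receptor Il4ra (1.87 and 2.09) and the mannose receptor Mrc1 (1.53 and 0.82). The fallen genes in wildtype arteries were Retnla (-1.17) and Mgl2 (-0.53), at 0.43 and -0.01 in Has3-deficient arteries, both named after their values were seen. Leaving out the 5 arrays that stand apart, these counts were 6 and 8 classical genes risen, and 5 and 6 alternative genes risen with 0 fallen in either genotype.

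**Figure D4:**
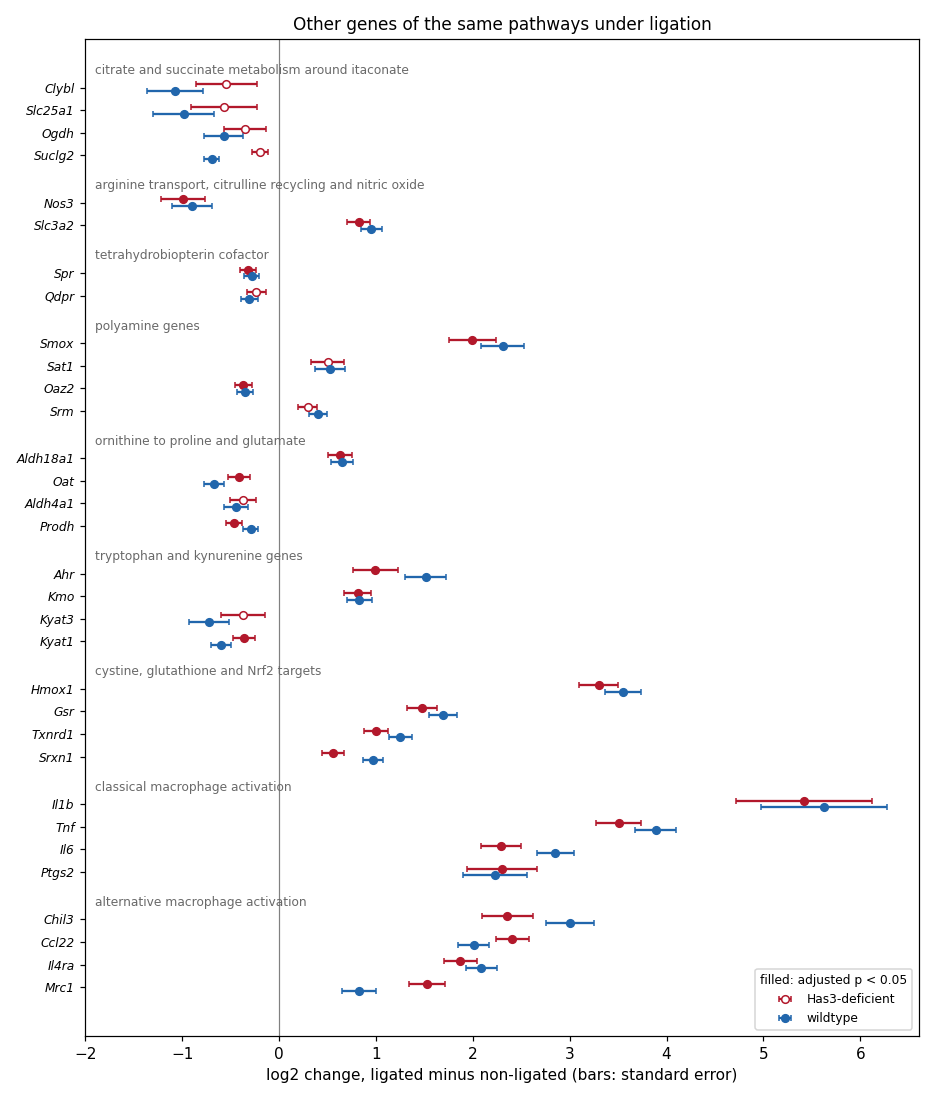
Changes with ligation (horizontal axis, log2 units, ligated minus non-ligated) with standard errors (bars) for the pathway genes named by rule, grouped by list; filled points passed. Smox, Hmox1 and the activation genes lie right of 0, and the citrate and succinate genes left of it.

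Markers of myeloid cells moved with the members. Of 12 macrophage and monocyte markers 11 rose in each genotype, and Mertk did not pass (-0.16 and -0.24). Their mean ran from 1.72 to 1.88 in ligated against -0.98 to -0.18 in non-ligated Has3-deficient arteries, and from 1.77 to 2.05 in ligated against -0.64 to -0.17 in non-ligated wildtype arteries. Of 11 neutrophil markers 8 rose in each genotype and 1, Camp, fell in Has3-deficient arteries (-0.20). The neutrophil mean ran from 1.64 to 2.03 in ligated against -0.66 to 0.01 in non-ligated Has3-deficient arteries, and from 1.41 to 2.20 against -0.73 to -0.18 in wildtype ones. Their part in the members' rise was not tested, and in whole arteries more cells of a type and more RNA per cell cannot be told apart. Of 7 smooth muscle markers 7 fell in Has3-deficient and 6 in wildtype arteries, where Des did not pass (-0.34). In each genotype 4 of 6 dendritic cell and 2 of 7 mast cell markers rose, with 0 fallen. T and NK cell markers had 3 of 8 risen in Has3-deficient and 4 in wildtype arteries, with 0 fallen. For endothelial markers 3 of 7 rose and 2 fell in each genotype, and 0 of 4 B cell markers passed. The counts of these further lists use all arrays. Without the 5 arrays that stand apart, 10 macrophage markers rose and 1 fell in Has3-deficient arteries, and 11 rose and 1 fell in wildtype arteries. The neutrophil counts were then 8 risen and 0 fallen in each genotype, and the smooth muscle counts 5 fallen in Has3-deficient and 6 in wildtype arteries. Whether these markers are present or absent cannot be read from centred values.

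Over all 15 arrays the genes closest in pattern to the strongly risen members had r of 0.970 or more. The measure was Pearson's r, taken against 18786 genes and given as a description, since the arrays fall into ligated and non-ligated clusters and share their libraries. Acod1 was closest to the chemokine Ccl3 (r = 0.998), Cd14 (0.997), a receptor for bacterial lipid, and Hdc (0.996), which makes histamine. Arg1 was closest to Ccl3 (0.991), Slc11a1 (0.990), a metal transporter of phagosomes, and Cd14 (0.990). For Slc7a11 these were Tnf (0.997), Olr1 (0.996), a receptor for oxidised LDL, and Il1f9 (0.996), and for Arg2 Cyp4f18 (0.989), Rhog (0.989) and Gsr (0.988). Nos2 was nearest to Tnfrsf9 (0.978), Tnn (0.973) and Tgm1 (0.970). Lower values were seen for Odc1 (Fam167b 0.918, Ppib 0.909, Susd6 0.907), Kynu (Maf 0.916, Tmem176b 0.915, Ptpro 0.914), Slc7a2 (Naa60 0.897, Lin9 0.821, Frzb 0.817) and Ido1 (Nmur2 0.813, Nppb 0.811, Acrv1 0.808). Within the 7 ligated arrays, wildtype array 1 was the highest for Acod1, Arg1, Arg2 and Slc7a11, and wildtype array 2 for Nos2, Odc1, Ido1 and Slc7a2. Wildtype array 4 was the lowest for Acod1, Arg2, Nos2, Slc7a11 and Kynu, and it also held the lowest neutrophil mean of the ligated arrays (1.41), while wildtype array 1 held the highest (2.20); this was not tested.

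Between genotypes no member passed. In ligated arteries, which ask whether loss of Has3 altered these genes after injury, 0 of 9 members passed and 0% of all genes did. With limma 0 of 9 had an unadjusted p under 0.05, as had 910 of 22180 genes, where 1109 are expected by chance. All 9 overlapped between genotypes (6.9% of all genes did not). The difference, Has3-deficient minus wildtype, was -0.05 for Acod1 (95% interval -1.07 to 0.97), -0.16 for Arg1 (-1.02 to 0.71) and -0.22 for Arg2 (-0.78 to 0.35). Nos2 was at 0.11 (-0.42 to 0.65), Slc7a11 at -0.20 (-0.58 to 0.18) and Slc7a2 at -0.32 (-0.85 to 0.21). Odc1 was at -0.17 (-0.37 to 0.04), Ido1 at -0.15 (-0.37 to 0.08) and Kynu at -0.02 (-0.13 to 0.09). For Acod1 and Arg1 differences of up to 1.07 and 1.02 log2 units below wildtype lie inside the intervals, so these are not shown to be alike.

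In non-ligated arteries 0 of 9 members passed, where 0.0857% of all genes did, and 0 of 9 had an unadjusted p under 0.05 with limma, as had 2979 of all genes. All 9 overlapped again (6.22% of all genes did not). The difference was 0.52 for Acod1 (95% interval -0.43 to 1.47), 0.46 for Arg1 (-0.34 to 1.26), 0.25 for Arg2 (-0.27 to 0.77) and 0.26 for Nos2 (-0.23 to 0.76). The differences of Acod1 and Arg1 are smaller than the SD of the Has3-deficient group (1.05 and 0.91), whose arrays 3 and 4 were the highest for both genes. Both arrays are high in neuronal markers (4.91 and 2.25). So are non-ligated arrays 1 of Has3-deficient (1.69) and 2 of wildtype mice (2.99), which had lower values, -1.91 and -1.93 for Acod1 and -1.43 and -1.09 for Arg1. Has3-deficient array 4 had the highest macrophage and neutrophil means of its group (-0.18 and 0.01). The part of these cells was not tested. Slc7a11 was at 0.17, Odc1 at -0.01, Ido1 at -0.07, Kynu at -0.0049 and Slc7a2 at -0.08.

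The ligation responses did not pass as different between genotypes (interaction, 0 of 9 members and 0% of all genes; with limma 0 of 9 members and 1802 of all genes had an unadjusted p under 0.05). The interaction, the Has3-deficient response minus the wildtype response, was negative for all 9 members, with a median of -0.24 beside -0.02 over all genes. It was -0.57 for Acod1 (95% interval -1.97 to 0.82), -0.62 for Arg1 (-1.80 to 0.56), -0.47 for Arg2 (-1.24 to 0.30) and -0.37 for Slc7a11 (-0.89 to 0.15). Not all signs were kept over the alternatives to the processing. The highest values were 0.16 for Acod1, 0.02 for Arg1, 0.13 for Nos2, 0.13 for Ido1, 0.03 for Odc1 and Kynu, and 0.10 for Slc7a2. Arg2 and Slc7a11 stayed below 0 (at most -0.27 and -0.13). How many of all genes had a negative interaction is not given here. The ligation comparisons share no arrays with each other, but the interaction reuses all 15. The intervals include 0, and the passing calls of Odc1 and Kynu in wildtype arteries alone are not shown to differ from Has3-deficient arteries (interaction -0.16 and -0.02, adjusted p = 0.776 and 0.968 with limma).

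**Figure D5:**
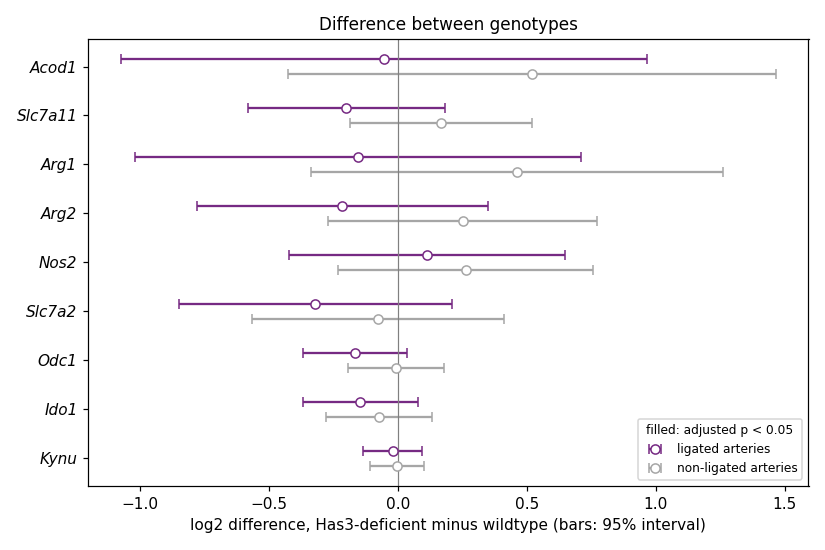
Difference between genotypes for each gene (horizontal axis, log2 units, Has3-deficient minus wildtype) with its 95% interval (bars) in ligated and non-ligated arteries; open points did not pass. Every interval includes 0, and those of Acod1 and Arg1 are the widest.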

How the data were processed

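RNA from carotid arteries (100 ng per sample, per the labels' protocols) was measured on 15 whole-transcript arrays. The deposited values are log2 values that the authors centred on the median of each of 33793 probe sets: every probe set has a median of 0, and array medians lie between -0.0014 and 0.0167. Base 2 was inferred from the range of the values. Normalization, software and build were not given in the sources used here. The number of arrays limits the precision.

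Genes came from the platform's probe table, updated to symbols of GRCm38.p6; 23521 probe sets had 1 symbol, 1814 several and 8458 none. Probe sets of a gene were averaged (22180 genes, 1082 with several). The 4 groups were fitted in 1 model with limma 3.58.1 in R 4.3.3 (11 residual and 2.69 prior degrees of freedom). On simulated data, with 200 of 22180 genes changed by 1 log2 unit, the fit recovered 91.5% to 93% of them. False ones made up 9.27% of calls for ligation in Has3-deficient and 3.16% in wildtype arteries. Between genotypes they were 5.18% of calls in ligated and 7% in non-ligated arteries. The 200 changed genes are fewer than the 4055 and 6173 that passed under ligation in Has3-deficient and wildtype arteries. Recovery of single members is not given by the simulation. The genotype difference in ligated arteries had a standard error of 0.48 for Acod1 and 0.40 for Arg1.

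The members and lists were chosen with earlier results of these data known. Pathway genes were named by rule: up to 4 passing genes per list with the largest mean change over both genotypes; 10 listed pathway genes were unmatched. Levels being lost, dim probe sets could not be filtered. The alternatives were array weights, a shared array median, quantile normalization, fits on only the groups compared, replicate blocks, a robust prior, another probe set choice, and leaving out arrays; the list counts without arrays that stand apart were added after the data were seen.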

Additional observations from a re-analysis of the deposited data

Results flagged for a closer look

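Of 27 sets of 4 arrays (9 genes in the 3 groups of 4), 3 held an array far from the others by Dixon's criterion; chance flags about 5 of 100. Acod1 in wildtype non-ligated array 1 was at -0.92, above the next at -1.93. Arg2 in Has3-deficient non-ligated array 1 was at -0.61, below the next at -0.04. Kynu in wildtype non-ligated array 2 was at 0.0220, above the next at -0.07. Wildtype non-ligated array 1 also had the highest fat marker mean of its group (1.84), Has3-deficient non-ligated array 1 the lowest macrophage marker mean (-0.98) and wildtype non-ligated array 2 the highest neuronal marker mean (2.99); their part in these values was not tested.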

How the results depend on the processing

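Over 1071 pairs of a member's change and an alternative, 1057 kept their side of the threshold (and their direction, where the change had passed), 12 lost the call, 2 gained it and 0 called changes turned sign. Acod1, Arg1, Arg2 and Slc7a11 passed under ligation in every alternative run in both genotypes. Beside the cases given above for Odc1, Kynu and Slc7a2, the Kynu wildtype call was lost with quantile normalization (0.14) and with only its 2 groups (0.15), and Kynu passed in Has3-deficient arteries with quantile normalization (0.17). With the probe set of largest variance Slc7a11 changed by 4.45 and 5.05 in place of 2.79 and 3.16. Genes passing between genotypes in ligated arteries were 1 with array weights and 1 with only the 2 groups, in place of 0. In non-ligated arteries they were 9 with array weights, 0 with only the 2 groups, 7 with the largest-variance probe set, 9 without the arrays that stand apart and 0 to 280 with 1 array left out, in place of 19. The check made did not show that replicate numbers pair the samples, and with this few arrays it cannot exclude that they do. The deviations of same-numbered wildtype arrays correlated by 0.03, 0.05, 0.10 and 0.16, not all above 0.1. Wildtype ligated arrays 1 and 2 did not correlate best with their own number, while arrays 3 and 4 did. Has3-deficient groups share 1 number (-0.06). With a fixed replicate block 1535 genes passed under ligation in Has3-deficient arteries in place of 4055, 0 between genotypes in non-ligated arteries, and Nos2 in Has3-deficient arteries (1.69, adjusted p = 0.0521 with limma) and Kynu in wildtype (0.15) lost the call; a random block moved no count by more than 1.5 times. The cause of these changes was not tested.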
